A study of Mus musculus with 24 samples.

Results

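Hox genes encode homeodomain transcription factors, and their transcripts were followed here in quadriceps muscle of mice on a low fat or a high fat diet. The members are all probe sets of the deposited table that the platform annotation gives a single symbol made of Hox, a cluster letter from a to d and a number, 31 of 16361 probe sets in all, each for a different gene, or 31 of the 14754 genes with a symbol. Members were selected on their names, but the family itself was chosen by the log2 intensities of Hoxd8, Hoxd9 and Hoxd10, because these differed by diet in the same data, so the diet differences of those 3 genes are described without a test. Male C57BL/6J mice, a strain the sample labels write as C56BL/6J, ate a low fat diet for a run-in of 3 weeks and were then assigned at random to palm oil diets. The low fat diet had 10% and the high fat diet 45% of its energy as fat, and mice were killed after 3 days, at an age of 12 weeks, or after 28 days, at 16 weeks. Each of the 4 groups of diet and day held 6 mice, with 1 Affymetrix mouse genome array per mouse. All groups carried the same wild-type strain and shared the run-in. High fat mice had numbers 1751 to 1772 in the labels and low fat mice 2010 to 2025, so diet and set of animals cannot be told apart, and neither can time on the diet and age. Values are log2 of the deposited intensity, which the authors computed with GCRMA.

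Mammals carry Hox genes in the Hoxa, Hoxb, Hoxc and Hoxd clusters, in which the order along the chromosome follows the order of expression along the body axis. Genes at the same place in different clusters form a paralogue group with similar homeodomains, and groups with high numbers act towards the tail and towards the tip of the limb. In adult tissue, connective tissue cells and muscle stem cells keep a pattern of Hox expression that reflects where in the body they come from. Hoxd8, Hoxd9 and Hoxd10 are neighbours in the Hoxd cluster on chromosome 2, with no other Hox gene between them in the RefSeq order.

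The sequences upstream of those 3 genes are shown because the genes lie side by side and their transcripts were higher in the same mice. They are the 250 bases before the annotated start, from RefSeq on GRCm38.p6 (chr2:74704365-74704614 for Hoxd8, chr2:74697513-74697762 for Hoxd9 and chr2:74691641-74691890 for Hoxd10, all on the plus strand). Capitals mark matches on either strand to CCAAT, which reads ATTGG on the other strand, and to GGGCGG, which reads CCGCCC there.
Hoxd8: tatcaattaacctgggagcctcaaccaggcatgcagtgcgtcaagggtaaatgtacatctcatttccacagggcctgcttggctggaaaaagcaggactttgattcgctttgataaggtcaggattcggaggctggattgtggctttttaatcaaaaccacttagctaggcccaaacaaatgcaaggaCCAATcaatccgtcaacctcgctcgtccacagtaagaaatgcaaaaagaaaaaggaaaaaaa
Hoxd9: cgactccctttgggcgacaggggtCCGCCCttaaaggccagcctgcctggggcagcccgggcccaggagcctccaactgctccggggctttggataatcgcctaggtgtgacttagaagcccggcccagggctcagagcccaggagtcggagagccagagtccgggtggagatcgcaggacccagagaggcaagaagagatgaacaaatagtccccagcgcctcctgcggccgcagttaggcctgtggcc
Hoxd10: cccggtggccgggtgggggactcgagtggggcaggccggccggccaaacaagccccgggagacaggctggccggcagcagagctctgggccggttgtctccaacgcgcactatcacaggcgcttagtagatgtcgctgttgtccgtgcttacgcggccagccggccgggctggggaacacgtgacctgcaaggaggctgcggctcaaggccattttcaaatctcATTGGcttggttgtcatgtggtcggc
Hoxd8 and Hoxd10 held 1 match to CCAAT each and Hoxd9 none, against 33.8% of 32851 upstream windows of this length with a match. Hoxd9 held 1 match to GGGCGG and the other two none, against 32.7% of windows. None of the 3 held TATAAA (12.4% of windows), TAATTA (4.84%) or TGATTTAT (0.837%). The number of CG dinucleotides was 6 for Hoxd8, 13 for Hoxd9 and 20 for Hoxd10, with a median of 6 over all windows. So the 3 windows had no searched motif in common. The table of upstream sequences held 21 of the 31 members.

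The array read 31 of the 39 Hox genes that RefSeq lists for these clusters, and the other 8 were not analysed here. A level of log2 4 was used as the line between probe sets with clear signal and those near background, and different probe sets are not compared as amounts. Of the 31 members, 23 stayed at or under this line on all 24 arrays. A further 7 members passed it on at least 6 arrays and entered the test with 5793 genes in all, namely Hoxa10, Hoxc6, Hoxc9, Hoxc10, Hoxd8, Hoxd9 and Hoxd10. No Hoxb gene was among them. Of the 9 Hoxa members 1 passed, of the 6 Hoxc members 3, and of the 9 Hoxd members 3. Just inside the line were Hoxc6 and Hoxd10, each above it on 7 arrays, and just outside was Hoxa5, above it on 1 array, at 4.25. Hoxd10 passed through high fat arrays only and Hoxc6 through low fat arrays only, while Hoxd9 was above the line on all 12 high fat arrays and on 1 low fat array. A gene that passes only where it is high has to differ between groups, so counts over the tested members are given as a description.

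**Figure D1:**
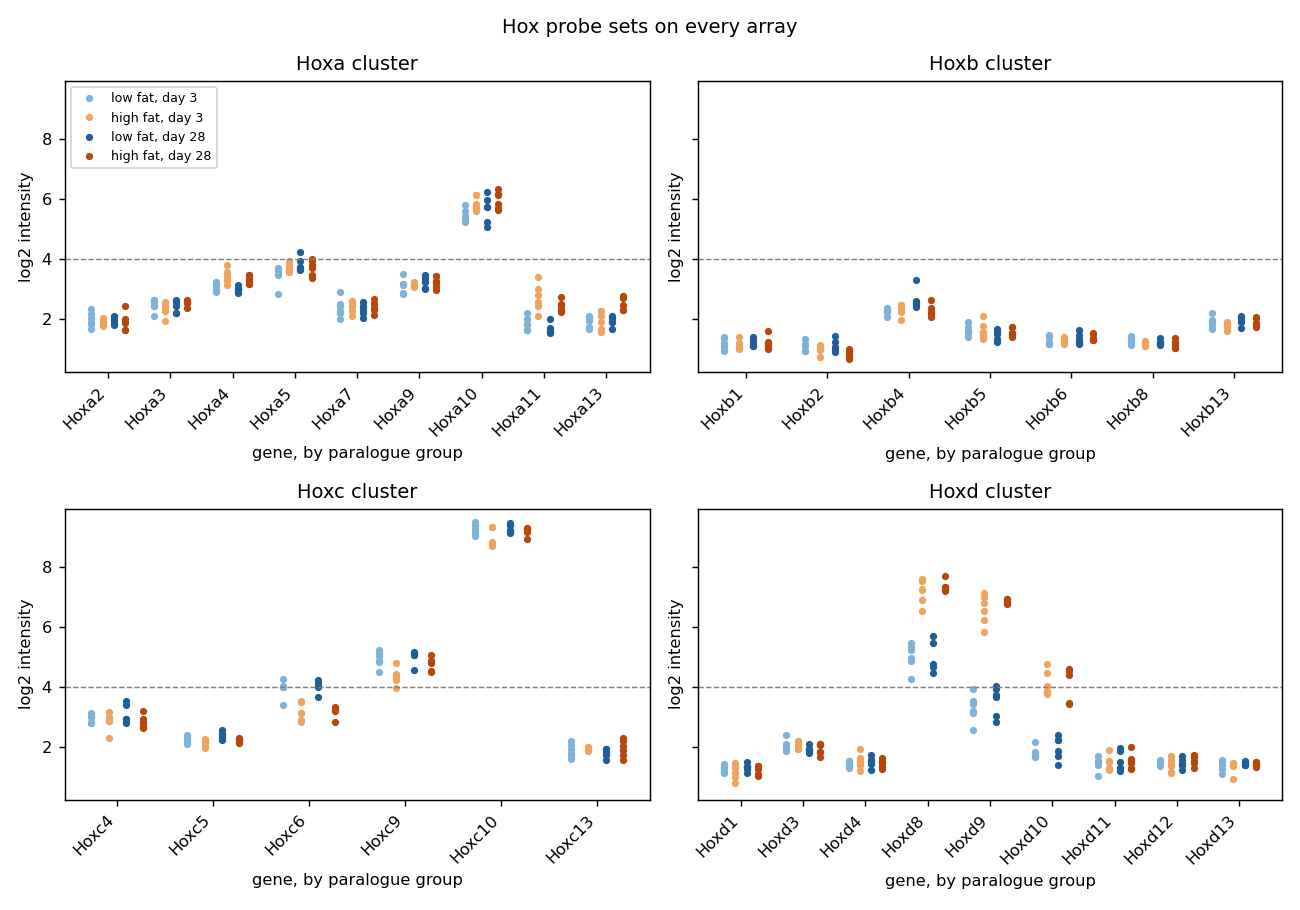
Log2 intensity (vertical axis) of each of the 31 Hox probe sets on every array, by cluster and paralogue group (horizontal axis), with 1 point per mouse and colours for diet and day; the dashed line is log2 4. Most members lie under the line in every group, and the orange and brown high fat points of Hoxd8, Hoxd9 and Hoxd10 stand apart from the blue low fat points.

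Arrays correlated with each other at 0.978 to 0.995 over all probe sets, array medians lay between intensities of 6.56 and 6.90, and the 9 markers of skeletal muscle were above log2 4 on all arrays with no diet difference called at either day. The number of arrays limits the precision. For low fat day 3 replicate 1 the labels name no DNase step, and the ranges given below for leaving out single arrays include the fit without it.

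Hoxd9 was the member with the largest difference between diets. At day 3 its log2 level ran from 2.55 to 3.93 on low fat (median 3.32) and from 5.82 to 7.13 on high fat (median 6.66). At day 28 it ran from 2.82 to 4.02 on low fat (median 3.69) and from 6.75 to 6.94 on high fat (median 6.84). The diets did not overlap, since the lowest of the 12 high fat arrays, at 5.82, lay above the highest low fat array, at 4.02. The group means were 3.30 ± 0.46 and 6.58 ± 0.49 at day 3 and 3.53 ± 0.49 and 6.84 ± 0.074 at day 28 (low fat, then high fat; SD, n = 6). The difference was 3.29 ± 0.23 at day 3 and 3.32 ± 0.23 at day 28 (log2, SE of the limma fit). On 11 of the 12 low fat arrays Hoxd9 lay under log2 4, so the size of this difference rests on the background correction, and with 16 added to every intensity before the log, a step that shrinks differences of dim genes, it was 2.11 and 2.23. In whole muscle, fewer cells of a type and less RNA per cell cannot be told apart.

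Hoxd8, the neighbour towards the front end of the cluster, had clear signal in every mouse. It ran from 4.27 to 5.46 on low fat (median 5.09) and from 6.52 to 7.59 on high fat (median 7.23) at day 3, and from 4.46 to 5.68 (median 4.75) and from 7.19 to 7.68 (median 7.28) at day 28. Every high fat mouse lay above every low fat mouse. The difference was 2.15 ± 0.22 at day 3 (4.45-fold) and 2.38 ± 0.22 at day 28 (5.19-fold, log2, SE).

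Hoxd10, the neighbour on the other side, was near background on the low fat diet, at 1.65 to 2.16 at day 3 (median 1.72) and 1.40 to 2.38 at day 28 (median 2.04). On high fat it ran from 3.77 to 4.76 at day 3 (median 3.95) and from 3.44 to 4.60 at day 28 (median 4.46). The diets again did not overlap. At day 28 the high fat mice held a pair of lower values, 3.44 and 3.45, with the other 4 between 4.39 and 4.60. The difference was 2.33 ± 0.22 at day 3 and 2.19 ± 0.22 at day 28 (log2, SE). Because the low fat values are dim, they rest on the background correction. With 16 added to the intensities, the difference of Hoxd10 was 0.79 at day 3 and 0.78 at day 28.

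Leaving out any of the arrays compared kept the day 3 difference of Hoxd9 between 3.14 and 3.44, that of Hoxd8 between 2.00 and 2.28 and that of Hoxd10 between 2.20 and 2.40. All 12 high fat arrays lay above all 12 low fat arrays for 60 of the 5793 tested genes, which is 1.04%. These 3 genes, whose diet difference led to the choice of the family, are among them.

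The other 6 Hoxd genes gave no clear signal. Hoxd11, Hoxd12 and Hoxd13, which pattern the outer limb in the embryo, lay on the far side of Hoxd10, and Hoxd4, Hoxd3 and Hoxd1 lay on the far side of Hoxd8. None of the 6 exceeded log2 2.38 on any array. Without the filter on low values, none of them was called in either diet comparison, so the step in the cluster was seen at Hoxd8, Hoxd9 and Hoxd10, while a change among transcripts under the background could not be detected by these probe sets.

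**Figure D2:**
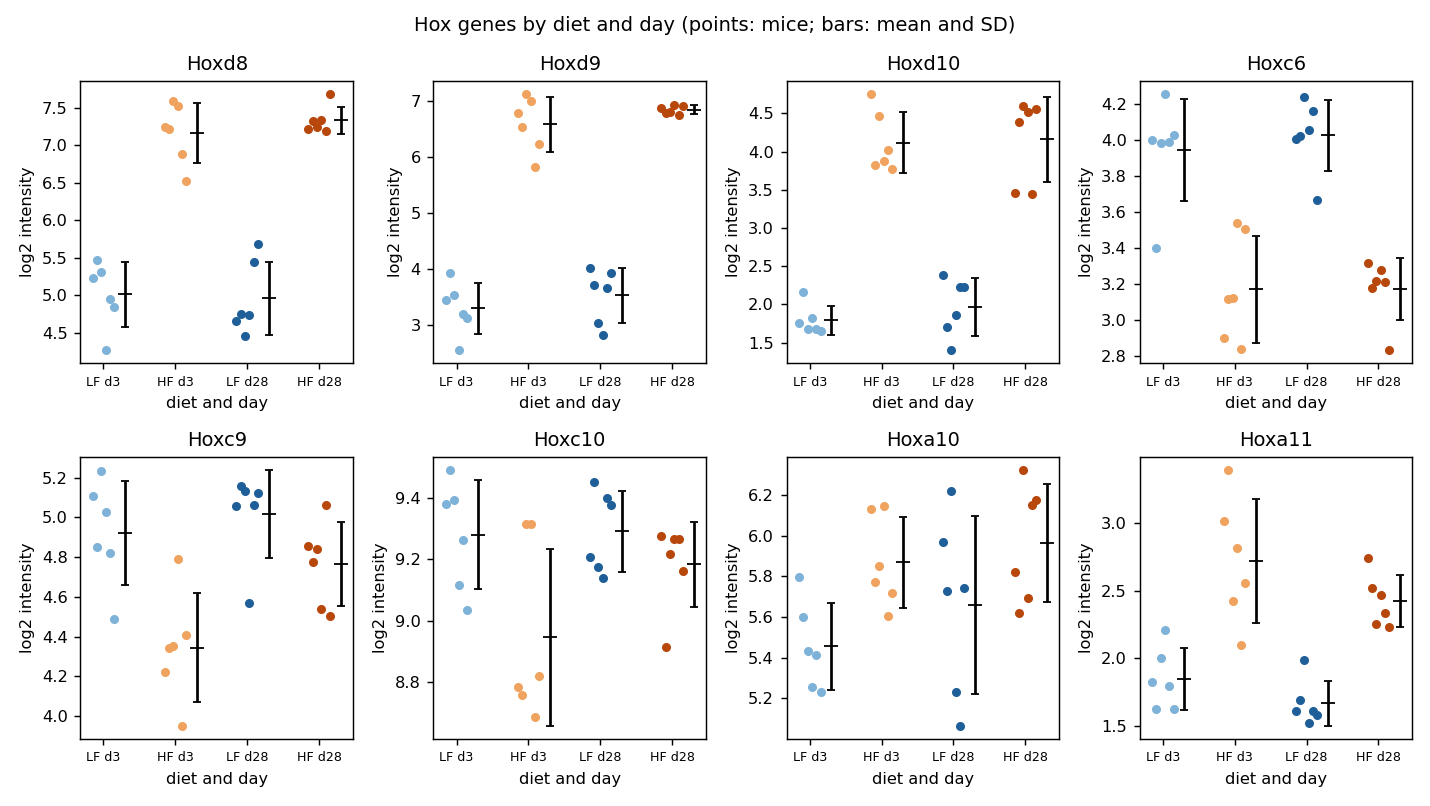
Log2 intensity (vertical axes, each with its own scale that does not start at 0) of 8 Hox genes in the 4 groups of diet and day (LF low fat, HF high fat, d day), with 1 point per mouse and the mean and SD (n = 6) as a bar beside the points. Hoxd8, Hoxd9 and Hoxd10 are higher on high fat with no overlap at either day, and Hoxc6 is lower on high fat.

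The 3 Hoxc genes past the filter had lower means on high fat at both days, but only Hoxc6 was called at both. Hoxc6, a gene of the thoracic part of the axis, ran from 3.40 to 4.25 on low fat (median 3.99) and from 2.84 to 3.54 on high fat (median 3.12) at day 3. Only low fat replicate 2, at 3.40, reached into the high fat range. At day 28 it ran from 3.67 to 4.24 on low fat (median 4.04) and from 2.83 to 3.31 on high fat (median 3.21), with no overlap. Because Hoxc6 passed the filter through low fat arrays only, its test is taken from the fit of all 14754 genes without the filter. There it fell at both days, with a log2 difference of -0.77 ± 0.13 (SE, limma adjusted p = 0.000897) at day 3 and -0.85 ± 0.13 (adjusted p = 0.000299) at day 28. Adjusted p-values are by the Benjamini-Hochberg method over all genes of a fit, 5793 where the filter was applied, and a gene is called under 0.05. With 16 added to the intensities the differences of Hoxc6 were -0.33 and -0.37. With the mean of slow fibre markers entered in the fit, described below, Hoxc6 was not called among the filtered genes (limma adjusted p = 0.162 and 0.0787), at differences of -0.83 and -0.90. That mean did not overlap between diets, so calls lost with it, here and below, do not separate slow fibre content from diet.

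Hoxc9 and Hoxc10 are members of the groups that mark the lower trunk and hindlimb. Hoxc9 ran from 4.49 to 5.24 on low fat (median 4.94) and from 3.95 to 4.79 on high fat (median 4.35) at day 3, where 5 of 6 high fat mice lay below the lowest low fat mouse. It fell by 0.58 ± 0.14 on the log2 scale (SE, limma adjusted p = 0.00599). At day 28 the ranges were 4.57 to 5.16 (median 5.09) and 4.50 to 5.06 (median 4.81), and the difference of -0.25 ± 0.14 was not called (adjusted p = 0.253). With slow fibre markers in the fit the day 3 call of Hoxc9 was lost (adjusted p = 0.222, at a difference of -0.73).

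Hoxc10 had a strong signal on every array, between 8.69 and 9.49. At day 3 it ran from 9.04 to 9.49 on low fat (median 9.32) and from 8.69 to 9.32 on high fat (median 8.80), where replicates 3 and 4, at 9.32 and 9.31, lay within the low fat range. The difference of -0.33 ± 0.11 (SE) was called by limma at an adjusted p = 0.0434. That call is weak, since leaving out any of 8 of the 12 arrays lost it (low fat replicates 1, 2, 3 and 5 and high fat replicates 1, 2, 5 and 6), at adjusted p-values of 0.0674 to 0.0986 and differences of -0.34 to -0.28. It was lost as well with the replicate number as a block (adjusted p = 0.0699), with only the arrays compared (0.130), without the filter (0.0786) and with slow fibre markers in the fit (0.397). At day 28 the difference of Hoxc10 was -0.11 ± 0.11 (adjusted p = 0.591). The other 3 Hoxc genes in the table, Hoxc4, Hoxc5 and Hoxc13, stayed under log2 4 on all arrays, at 3.52 at most, and were not called in a diet comparison without the filter.

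Hoxa10, a gene of the hindlimb and hip level and the single Hoxa gene past the filter, was above log2 5 on every array. It ran from 5.23 to 5.80 on low fat (median 5.42) and from 5.60 to 6.15 on high fat (median 5.81) at day 3, with overlap, and from 5.06 to 6.22 (median 5.73) and from 5.62 to 6.33 (median 5.99) at day 28. The differences of 0.41 ± 0.17 and 0.31 ± 0.17 (log2, SE) were not called (limma adjusted p = 0.101 and 0.265). Their 95% intervals were 0.066 to 0.76 and -0.042 to 0.66.

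Hoxa4, Hoxa11 and Hoxa13, all under the filter, differed by diet when all 14754 genes were fitted without it. Hoxa11, a gene of the middle segment of the limb, stayed under log2 4 on all arrays. It ran from 1.63 to 2.21 on low fat (median 1.81) and from 2.10 to 3.39 on high fat (median 2.68) at day 3, with 5 of 6 high fat mice above every low fat mouse. At day 28 it ran from 1.52 to 1.99 (median 1.61) and from 2.23 to 2.74 (median 2.40) with no overlap. Hoxa11 rose by 0.87 ± 0.16 at day 3 (SE, limma adjusted p = 0.00117 over all genes) and by 0.75 ± 0.16 at day 28 (adjusted p = 0.00362), on a scale where such dim values depend on the background correction. With 16 added to the intensities the differences of Hoxa11 were 0.21 and 0.16 (adjusted p = 0.00447 and 0.0369). The calls were lost with slow fibre markers in the fit (adjusted p = 0.337 and 0.319, at differences of 0.84 and 0.73), and at day 28 with adipocyte markers in the fit (0.851, at 0.26). At day 28 the adipocyte mean did not overlap between diets. Calls lost with it at that day, here and below, cannot separate adipocyte content from diet.

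Hoxa13, the last gene of its cluster, rose at day 28 without the filter, from 1.67 to 2.09 on low fat (median 1.98) to 2.30 to 2.76 on high fat (median 2.58), with no overlap. That difference was 0.60 ± 0.12 (log2, SE, limma adjusted p = 0.00314), while at day 3 the difference was 0.051 ± 0.12. With 16 added to the intensities the day 28 difference of Hoxa13 was 0.14 (adjusted p = 0.00291). The diet effects of the days were not shown to differ (log2 difference of effects 0.55 ± 0.17, adjusted p = 0.157). The day 28 call of Hoxa13 was lost with slow fibre markers (adjusted p = 0.395, at 0.51) and with adipocyte markers (0.322, at 0.63) in the fit. Hoxa4, towards the front end, had differences of 0.36 ± 0.0925 at day 3 (SE, limma adjusted p = 0.0208) and 0.33 ± 0.0925 at day 28 (adjusted p = 0.0369). With slow fibre markers in the fit neither was called (adjusted p = 0.397 and 0.392, at 0.44 and 0.39), and with adipocyte markers neither was (0.0786 and 0.717, at 0.33 and 0.26). At day 28 the call of Hoxa4 was lost without any of 9 of the 12 arrays (low fat replicates 1, 2, 3, 4 and 6 and high fat replicates 1, 2, 4 and 5; adjusted p = 0.0547 to 0.0935, differences of 0.29 to 0.33). At day 3 it was lost without low fat replicate 6 or high fat replicate 3 (0.0514 to 0.0521, differences of 0.28 to 0.33).

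The 7 Hoxb genes in the table gave no clear signal in any group. Their highest value on any array was 3.29, for Hoxb4, and their means over all arrays ran from 1.0 to 2.37. None was called in a diet comparison without the filter. The smallest adjusted p of the Hoxb genes was 0.0734, for Hoxb2 at day 28 (log2 difference -0.27 ± 0.088, SE, limma), followed by 0.0765 for Hoxb4 (-0.37 ± 0.12).

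Counted over the family at day 3, 6 of the 7 tested members were called by limma at an adjusted p under 0.05, 3 higher and 3 lower, where 14.9% of all 5793 genes were called. Their median log2 difference was 0.41, against -0.0051 over all tested genes. At day 28, 4 of 7 were called, 3 higher and 1 lower, with a background of 12.5%, a median of 0.31 and a median of 0.0097 over all tested genes. Nothing is read from these shares, as the genes that led to the choice of the family are among them and as several members passed the filter through 1 diet only. Over all 31 members without the filter, 7 were called at day 3, against 5.35% of 14754 genes, and 7 at day 28, against 5.5%. Their medians were -0.0063 at day 3 and 0.0025 at day 28, beside -0.0039 and 0.024 over all genes, so the middle of the family lay near 0.

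Groups that did not overlap were counted in the same way. At day 3 all 6 high fat mice lay above all low fat mice for Hoxd8, Hoxd9 and Hoxd10, and below them for no member, where 3.5% of the tested genes were higher and 2.59% lower in this sense (1.86% and 1.27% of all genes without the filter). At day 28 the high fat mice lay above for 6 of the 31 members, Hoxa4, Hoxa11, Hoxa13 and the same 3 Hoxd genes, and below for Hoxc6, where 3.49% of the tested genes were higher and 4.56% lower (1.82% and 2.42% without the filter). Hoxa4 was parted by 0.0074 log2 units, Hoxa13 by 0.21, Hoxa11 by 0.24 and Hoxc6 by 0.35, while Hoxd10 was parted by 1.06, Hoxd8 by 1.51 and Hoxd9 by 2.73. Over both days 3 members (Hoxd8, Hoxd9 and Hoxd10) were higher on all 12 high fat arrays, against 1.04% of tested genes and 0.461% of all genes. No member was lower on all 12, against 0.207% and 0.0949%. The diet difference of these 3 Hoxd genes led to the choice of the family, so nothing is read from their part in these counts.

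**Figure D3:**
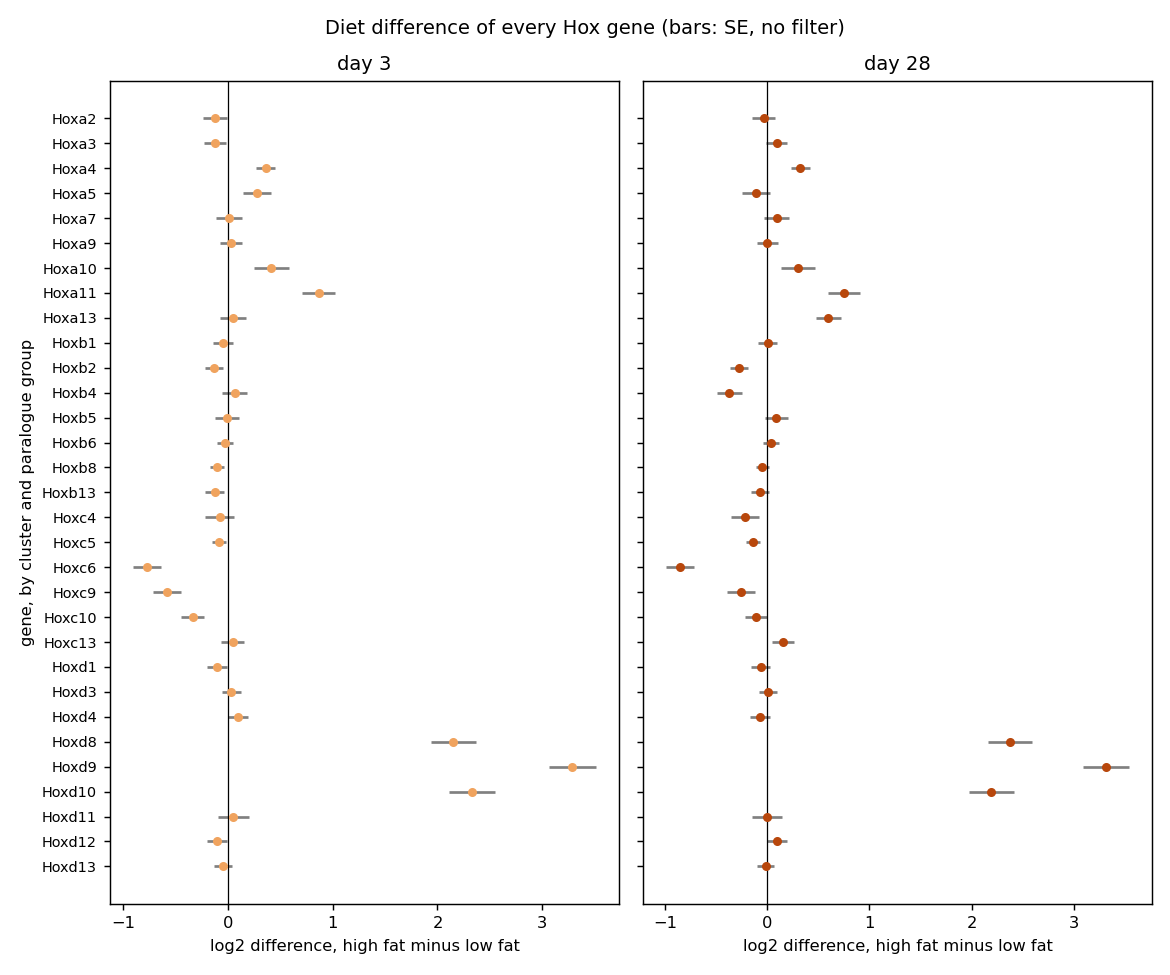
Log2 difference of high fat minus low fat (horizontal axes) for each of the 31 Hox genes, ordered by cluster and paralogue group (vertical axis), at day 3 and at day 28, with the SE of the limma fit without a filter as bars. Hoxd8, Hoxd9 and Hoxd10 lie between 2.15 and 3.32 at both days, Hoxc6 lies at -0.77 and -0.85, and most other genes lie near 0.

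The diet differences at the 2 days were set against each other by an interaction term, in which all 4 groups enter. No member was called, where 1.38% of the tested genes were called. The limma interaction called 0 of the 7 members, with a smallest adjusted p of 0.371. At an unadjusted p under 0.05 there were 0 of the 7, beside 1089 of the 5793 tested genes. Without the filter the interaction called 0 of 31 (0.0407% of all genes called). At an unadjusted p under 0.05 there were 2 of the 31, beside 1921 of all 14754 genes. The change of the diet effect from day 3 to day 28 was 0.030 ± 0.32 for Hoxd9, 0.22 ± 0.30 for Hoxd8 and -0.13 ± 0.31 for Hoxd10 (log2, SE), given as a description since their levels in these groups led to the choice of the family. For Hoxc6 it was -0.081 (95% interval -0.48 to 0.32), for Hoxc9 0.32 (-0.076 to 0.72), for Hoxc10 0.23 (-0.097 to 0.55) and for Hoxa10 -0.11 (-0.60 to 0.38). The Hoxc9 fall was called at day 3 and not at day 28, but its diet effects were thus not shown to differ between the days.

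Between day 3 and day 28 within a diet, no member was called by limma. On low fat the 7 tested members had 0 at an unadjusted p under 0.05, beside 964 of the 5793 tested genes (0.345% called). On high fat, 2 of the 7 had an unadjusted p under 0.05, beside 834 of the 5793 tested genes (0.552% called). They were Hoxc9, with a log2 difference of 0.42 ± 0.14 (SE, limma adjusted p = 0.157), and Hoxc10, with 0.24 ± 0.11 (adjusted p = 0.320). Without the filter limma called 0 of 31 members on either diet, where 0.0203% of all genes were called on low fat and 0.061% on high fat. At an unadjusted p under 0.05 there were 3 members on low fat, beside 1517 of all 14754 genes. On high fat there were 3, beside 1652 of 14754. These comparisons share their arrays with the diet comparisons.

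Within groups the Hoxd genes also varied among mice. Over the deviations of the 24 arrays from their group means, Hoxd9 correlated with Hoxd8 at r = 0.73 and with Hoxd10 at r = 0.41, and Hoxd8 with Hoxd10 at r = 0.42. Hoxc10 deviated with Hoxd9 (r = 0.69) and with Hoxd8 (r = 0.59), but hardly with Hoxd10 (r = 0.036). The direction of its diet difference was opposite to that of the 3 Hoxd genes. Hoxc6 deviated against the 3 Hoxd genes (r = -0.49 with Hoxd8, -0.32 with Hoxd9 and -0.49 with Hoxd10). Outside the family, the 5 tested genes with deviations most like Hoxd9 were Fam174a (r = 0.82), Pnrc1 (0.81), Rnf6 (0.80), 2310061I04Rik (0.80) and Rnf139 (0.76). Of 5792 genes, Hoxd8 ranked 9, Hoxc10 ranked 20, Hoxd10 587, Hoxc9 686, Hoxa10 917 and Hoxc6 5145. Of the 5 genes outside the family, Pnrc1 was lower on high fat at day 3 (-0.45, limma adjusted p = 0.0031) and the other 4 were not called at either day. These correlations are descriptions over arrays that share their normalization.

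Hox proteins bind DNA with partners of the Pbx, Meis and Pknox families. Of 6 such genes on the array, 2 passed the filter, Pknox1 and Pknox2, and neither was called at day 3 or day 28. Polycomb complexes keep Hox clusters silent and trithorax complexes keep them active. Of 21 tested genes of these complexes, 1 rose and 2 fell at day 3 (median 0.024), and 1 rose at day 28 (median 0.13), where 14.9% and 12.5% of all tested genes were called. Cbx6, a chromodomain protein of Polycomb, rose by 0.32 ± 0.10 at day 3 (SE, limma adjusted p = 0.0339). Ezh1, a histone methyltransferase of Polycomb, fell by 0.28 ± 0.094 (adjusted p = 0.0441), and Wdr5, a subunit of trithorax-type methyltransferases, fell by 0.32 ± 0.098 (adjusted p = 0.0306). Rbbp7, a histone-binding subunit, rose by 0.21 ± 0.054 at day 28 (adjusted p = 0.0100). Each of these steps was smaller than 1 log2 unit.

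Of other developmental factors of limb and muscle, 5 of 29 on the array passed the filter. Of these, 1 rose and 1 fell at day 3, and 1 rose and 2 fell at day 28, where 14.9% and 12.5% of all tested genes were called. Tbx15, a T-box factor of glycolytic fibres and of the trunk and limb mesenchyme, fell at both days, by 0.43 ± 0.089 (SE, limma adjusted p = 0.00241) and by 0.39 ± 0.089 (adjusted p = 0.00476). Meox2, a homeobox gene of limb muscle, rose at day 3 (0.73 ± 0.16, adjusted p = 0.00281) and was not called at day 28 (0.35 ± 0.16, adjusted p = 0.151). Irx3, another homeobox gene, fell at day 28 (-0.64 ± 0.17, adjusted p = 0.0116), at a diet effect that differed from that of day 3 (interaction -0.94 ± 0.23, adjusted p = 0.0452), and Six4, a homeobox gene of muscle formation, rose at day 28 (0.50 ± 0.13, adjusted p = 0.0126).

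The genes that flank the Hoxd cluster were set beside it, where 14.9% of all tested genes were called at day 3 and 12.5% at day 28. Of 4 tested genes with at most 3 coding genes between them and the cluster, Mtx2, the nearest on its side, rose by 0.37 ± 0.0905 (SE, limma adjusted p = 0.00794) and Atp5g3 by 0.14 ± 0.044 (adjusted p = 0.0301) at day 3, and Atf2 and Nfe2l2 were not called. None of the 4 was called at day 28, where Mtx2 stood at 0.12 ± 0.0905 (adjusted p = 0.447). As the differences of Hoxd8, Hoxd9 and Hoxd10 led to the choice of the family, their size is not compared with these 4 genes. Evx2 and Chn1, the other Hoxd flanking genes on the array, never exceeded log2 4 and were not tested. Beside the Hoxa cluster, Snx10 fell at both days (-0.60 ± 0.15, adjusted p = 0.00896, and -0.96 ± 0.15, adjusted p = 0.000151) and Skap2 at day 28 (-1.12 ± 0.24, adjusted p = 0.00240), among 4 tested flanking genes. The tested genes that flank the Hoxb and Hoxc clusters were not called at either day.

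Markers of slow-twitch fibres moved with the Hoxd genes. All 11 slow fibre markers on the array rose at day 3 and 9 of 11 at day 28, with median log2 differences of 4.01 and 3.66. Of all tested genes, 14.9% and 12.5% were called at these days. Their summed intensity ran from 553 to 3234 on low fat and from 5615 to 25996 on high fat at day 3, and from 1318 to 3457 and from 6087 to 11075 at day 28. Their mean log2 level ran from 4.53 to 7.86 over the low fat mice and from 8.53 to 10.82 over the high fat mice, so it did not overlap between diets and cannot be told apart from diet. Hoxd9 ran from 2.55 to 4.02 over the same low fat mice. With that mean entered in the fit, the difference of Hoxd9 was 3.04 ± 0.41 at day 3 and 3.10 ± 0.38 at day 28 (log2, SE), that of Hoxd8 2.03 ± 0.39 and 2.27 ± 0.36, and that of Hoxd10 2.50 ± 0.40 and 2.35 ± 0.36. The part of slow fibre content in the Hox differences was not tested.

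**Figure D4:**
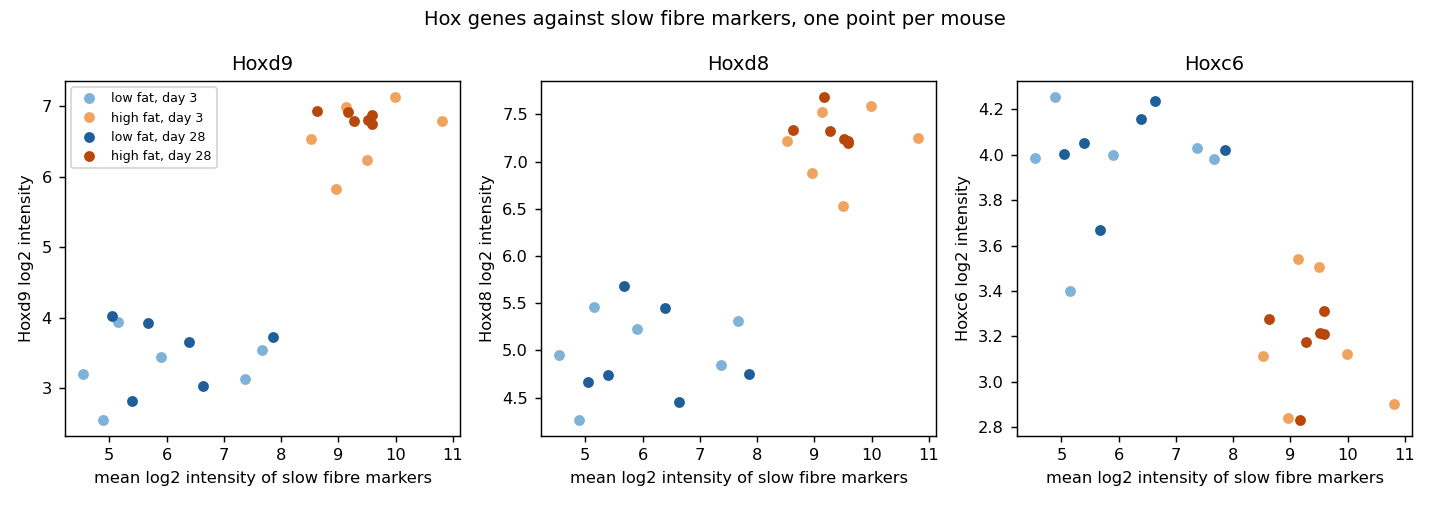
Log2 intensity of Hoxd9, Hoxd8 and Hoxc6 (vertical axes, not starting at 0) against the mean log2 intensity of 11 slow fibre markers (horizontal axes), with 1 point per mouse and colours for diet and day. Low fat mice spread from 4.53 to 7.86 along the slow fibre axis with Hoxd9 between 2.55 and 4.02, and high fat mice lie to the right with Hoxd9 between 5.82 and 7.13.

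Markers of cells that could carry Hox transcripts moved as well, where 14.9% of all tested genes were called at day 3 and 12.5% at day 28. Of 11 tested fibroblast and tendon markers, 6 rose at day 3 (median 0.72), and 3 rose and 2 fell at day 28 (median 0.031). Their summed intensity was 7369.5 to 14109 on low fat and 9474 to 14078 on high fat at day 3, with overlap, and 6997 to 11256 and 8345 to 9188 at day 28, again with overlap. Of 10 tested endothelial markers, 6 rose at day 3 and 1 at day 28 (medians 0.42 and 0.33), with summed intensities of 721 to 897 against 1026 to 1156 at day 3 and 834 to 1020 against 959 to 1278 at day 28. Of 4 tested markers of smooth muscle and pericytes, 3 rose at day 3 and 1 at day 28 (medians 0.44 and 0.36), with summed intensities of 495 to 856 against 788 to 1215 and 512 to 705 against 773 to 1099. Satellite cell markers, of the muscle stem cell, had 5 of 7 genes never above log2 4, and neither of the 2 tested was called.

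Adipocyte and macrophage markers moved the other way at day 28 and only in part at day 3, beside the same shares of all tested genes called. Of 8 tested adipocyte markers, 3 fell and 1 rose at day 3 and 7 fell at day 28 (medians -1.54 and -3.87), with summed intensities of 7584 to 15822 against 8889.6 to 16067 at day 3. At day 28 these were 11200 to 20218 against 8441 to 10026. Of 8 tested macrophage markers, 1 fell at day 3 and all 8 at day 28 (medians -0.50 and -1.15), with summed intensities of 965 to 2294 against 771 to 1556 and 1149.5 to 2486 against 696 to 1191. The 3 nerve and Schwann cell markers and the 3 markers of kidney, bone or skin on the array were never above log2 4. With the mean of 8 adipocyte markers in the fit, the difference of Hoxd9 was 3.13 ± 0.26 at day 3 and 2.95 ± 0.38 at day 28, and that of Hoxc6 was -0.91 ± 0.15 and -1.17 ± 0.21 (log2, SE). At day 28 that mean ran from 8.46 to 10.24 on low fat and from 5.77 to 6.83 on high fat. The adipocyte mean thus cannot be told apart from diet at day 28. The part of fibroblast, endothelial, smooth muscle and macrophage markers in the Hox differences was not tested.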

How the data were processed

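Quadriceps RNA of 24 mice was hybridised to Affymetrix arrays, 1 per mouse. The authors deposited 1 table of linear intensity values per probe set, normalized with GCRMA per the submitters' processing notes, whose version and probe definition are not given in the sources used here. GCRMA subtracts background by probe sequence, which bears on dim probe sets. The log2 of each deposited intensity was taken with no offset. Of 16361 probe sets, the platform annotation gave 14771 1 symbol, 589 several and 937 none, and 64 were controls. The probe set with the highest mean stood for a gene (14754 genes).

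Genes above log2 4 on at least 6 arrays (5793) entered limma 3.58.1 in R 4.3.3, with a mean per group, 20 residual degrees of freedom and Benjamini-Hochberg adjustment over all of them, called under 0.05. The fit was tested on simulated data. P-values set a difference against the spread between mice within groups. They do not cover variation between sets of animals, which coincide with diet. The members and all gene lists were chosen with earlier results of these data known, so no list is independent support. Every Hox gene could be named, each list gene called in a comparison, and the 5 genes with deviations most like those of Hoxd9. Gene order and upstream sequences come from RefSeq (GRCm38.p6).

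Replicate numbers come from the labels; not every same-numbered pair correlated over 0.1 in its deviations, so the numbers were not treated as pairing mice. Alternatives were other filters, an offset of 16, quantile normalization, limma-trend, array weights, a replicate block, covariates, only the arrays compared and leaving out each array. Those for Hoxa4, Hoxa11 and Hoxa13 were chosen after seeing the data.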

Additional observations from a re-analysis of the deposited data

Results flagged for a closer look

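In 40 groups of 6 arrays (10 Hox genes, 4 groups each), 7 held an array far from the others, with a gap to its neighbour over 0.625 of the range of the group. Chance gives about 1 in 20 groups. Hoxc9 at 4.57 in low fat day 28 replicate 4 stood below the other 5 (5.06 to 5.16). Hoxc6 at 3.40 in low fat day 3 replicate 2 stood below the others (3.98 to 4.25), and Hoxc6 at 2.83 in high fat day 28 replicate 6 below the others (3.18 to 3.31). Hoxc10 at 8.92 in high fat day 28 replicate 2 stood below the others (9.16 to 9.28). Hoxd8 at 7.68 in high fat day 28 replicate 6 stood above the others (7.19 to 7.34), Hoxd10 at 2.16 in low fat day 3 replicate 2 above the others (1.65 to 1.82), and Hoxa11 at 1.99 in low fat day 28 replicate 3 above the others (1.52 to 1.69). The cause was not tested for any of them.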

How the results depend on the processing

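Of 150 diet differences of tested members under alternatives other than leaving out an array, 143 kept direction and side of the threshold and 7 kept the direction but were no longer called. The 150 include Hoxd8, Hoxd9 and Hoxd10, whose diet difference led to the choice of the family, and differences that were never called. All 7 lost calls were of Hoxc6 at both days and of Hoxc9 and Hoxc10 at day 3. So each call outside the 3 Hoxd genes was lost under some setting. Of 48 values of Hoxa4, Hoxa11 and Hoxa13 without the filter, 35 kept both, 12 lost the call and 1 changed sign. Of those 12, 3 are for Hoxa4 outside the covariates (adjusted p = 0.0931 at day 3 with only the arrays compared, and at day 28 0.0542 with the offset of 16 and 0.0529 with limma-trend). With slow fibre markers in the fit, whose mean did not overlap between diets, the count of called Hox genes at day 3 was 3, against 6. At day 28 it was 7 with no filter (which tests all 31 members) and 2 with a filter at log2 5 (which drops dim members), against 4. Leaving out each array gave 5 to 6 called at day 3 and 4 at day 28. Same-numbered mice of the 2 diets correlated in their deviations at -0.051 to 0.24 at day 3 (mean 0.12, against 0.0041 over all pairs) and at -0.082 to 0.54 at day 28 (mean 0.16, against 0.002), with 3 of 6 pairs over 0.1 at each day. As not every pair passed 0.1, the numbers were not taken to pair the mice; with the replicate block, 5 were called at day 3, 4 at day 28 and 0 in the other comparisons.

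Small differences between the diet effects changed sign. For Hoxc6 this was 0.021 under quantile normalization, and for Hoxd9 -0.070 with array weights and -0.18 with the adipocyte mean as a covariate. Leaving out each array gave -0.23 to 0.0041 for Hoxa10, -0.15 to 0.027 for Hoxc6, -0.25 to 0.0099 for Hoxd10 and -0.12 to 0.18 for Hoxd9. The day 3 diet difference of Hoxa13 without the filter was -0.049 with slow fibre markers in the fit and -0.012 to 0.13 with each array left out. The cause was not tested. Dim signal over background limits what 24 of the 31 members can show.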
